A study of Mus musculus with 2 samples.

Results

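Nuclear-encoded genes of oxidative phosphorylation (OXPHOS) were examined across the cell classes of the embryonic mouse dorsal telencephalon. The genes were chosen by symbol alone: all subunit genes named Nduf (families a, b, c, s and v), Sdha to Sdhd, Uqcr, Cox4 to Cox8 and Atp5, without pseudogenes. This gave 83 of the 32285 genes in the tables. Of these, 35 code for complex I, 4 for complex II, 8 for complex III, 19 for complex IV (Ndufa4 was counted here) and 17 for complex V. They were set beside the 13 protein-coding genes of mitochondrial DNA (symbols starting with mt-), of which 7 belong to complex I, 1 to complex III, 3 to complex IV and 2 to complex V. Symbols are those of the files, which use the older Atp5 names.

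The OXPHOS system lies in the inner mitochondrial membrane. Complexes I and II take electrons from NADH and succinate, complex III passes them on through cytochrome c, and complex IV hands them to oxygen. Complexes I, III and IV pump protons, and complex V, the ATP synthase, uses the resulting gradient to make ATP. Most subunits are encoded in the nucleus and imported, whereas a small core is transcribed inside the organelle, so each of these complexes except complex II needs products of both genomes. Neural progenitors are known for a strong use of glycolysis, and neurons for their dependence on oxidative metabolism.

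The libraries came from wild-type (WT) embryos of the EomesDot line at embryonic day 14.5, which the series describes as control animals of an Eomes-Cre mouse line. The study names C57BL/6J embryos, and how this relates to the EomesDot line is not stated. No gene deletion or treatment is given for these animals, nor is it stated which embryos a library holds. The tissue, labelled brain hemispheres, was dorsal telencephalon dissociated with papain, and transcripts were captured at their 3′ ends in droplets. There were 2 libraries, called replicate 2 and replicate 4 after their titles, and both belonged to the same group, so the comparisons are between cell classes and each has n = 2. The study counted embryos and loaded each sample separately, but did not tie these libraries to embryos by number. If they are not separate animals, p-values measure only a technical spread between libraries.

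The tables held 40267872 UMIs in 1712 barcodes (replicate 2) and 49422007 UMIs in 2589 barcodes (replicate 4), where a UMI marks 1 captured transcript. After filtering, 1197 and 1956 cells were retained, with medians of 30810 and 22948 UMIs. There were 3 barcodes present in both tables, of which 1 was retained in both. Clusters were named from marker genes as radial glial cell (RGC)-like (241 and 428 cells), intermediate progenitor cell (IPC)-like (189 and 315), excitatory neuron-like (517 and 789) and medial ganglionic eminence (MGE) interneuron-like (54 and 84). The genes examined here and the mitochondrial genes took no part in the clustering. The names were rebuilt from markers and may differ from those of the study. RGCs are the stem cells lining the ventricle, IPCs their transit-amplifying daughters, and MGE interneurons are GABAergic neurons that migrate into the cortex from the subpallium. All RGC-like clusters had all 11 RGC markers raised. In contrast, 2 of the 4 IPC-like clusters also had 7 of 12 excitatory neuron markers raised, and another had 5. The mixing went the other way too, as 2 excitatory neuron-like clusters (93 and 214 cells) had 4 and 5 of 8 IPC markers raised. The counts of calls are also given without the 2 IPC-like clusters, and without these excitatory neuron-like clusters where that moved them, both alternatives chosen after seeing the data.

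The share of all UMIs that came from the 83 genes differed between cell classes more than between libraries for the most distant classes. The share in RGC-like cells was 1.66% in replicate 2 and 1.5% in replicate 4. IPC-like cells held 1.60% and 1.36%, and excitatory neuron-like cells 1.45% and 1.24%. MGE interneuron-like cells held 1.17% and 0.881%, less than the other 3 classes in each library. The highest share among classes with 10 or more cells per library was that of hem or choroid plexus-like cells with 2.37% and 2.10%, followed by meningeal-like cells with 1.98% and 1.94%. Choroid plexus epithelium secretes cerebrospinal fluid. Cajal-Retzius-like cells, the Reln-expressing neurons of the marginal zone, held 1.78% and 1.44%.

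As means ± SD over both libraries (n = 2), the shares were 2.23% ± 0.186 in hem or choroid plexus-like, 1.96% ± 0.0262 in meningeal-like, 1.61% ± 0.246 in Cajal-Retzius-like, 1.58% ± 0.115 in RGC-like, 1.48% ± 0.168 in IPC-like, 1.35% ± 0.143 in excitatory neuron-like and 1.02% ± 0.202 in MGE interneuron-like cells. Neighbours in this order from Cajal-Retzius-like to excitatory neuron-like cells lay within 1 SD of each other. Yet RGC-like, IPC-like, excitatory neuron-like and MGE interneuron-like cells came in this order in each library. GABAergic cells that could be given no sub-class were close to MGE interneuron-like cells, with 1.26% and 0.976%. Other GABAergic classes, with few cells in replicate 2, were also low. CGE or LGE interneuron-like cells (from the caudal or lateral ganglionic eminence, 5 and 29 cells) held 0.843% and 0.577%. Striatal projection neuron-like cells (1 and 65 cells) held 0.62% and 0.91%. These shares are descriptions with no test.

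**Figure D1:**
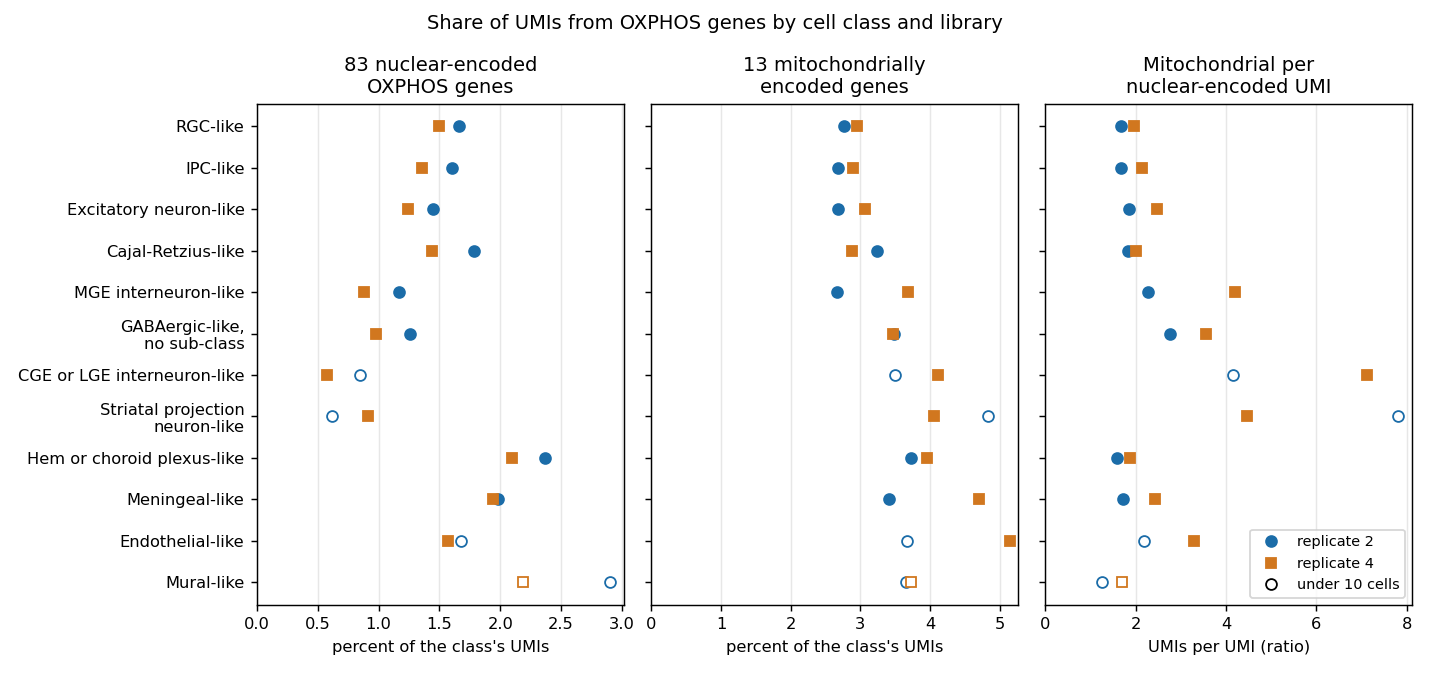
Percent of a class's UMIs from the 83 nuclear-encoded OXPHOS genes (left), from the 13 mitochondrially encoded genes (middle) and the ratio of the latter to the former (right), for 12 named cell classes. Circles are replicate 2, squares replicate 4 and open symbols groups of under 10 cells; on the left, hem or choroid plexus-like cells (2.37% and 2.10%) lie to the right of MGE interneuron-like cells (1.17% and 0.881%), while in the middle they have 3.73% and 3.96% against 2.67% and 3.69%.

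The 13 mitochondrially encoded genes had nearly equal shares in these 4 classes in replicate 2 and another order in replicate 4. Their share was 2.77% and 2.95% for RGC-like, 2.68% and 2.90% for IPC-like, 2.68% and 3.06% for excitatory neuron-like, and 2.67% and 3.69% for MGE interneuron-like cells. In replicate 2 these classes lay within 2.67% to 2.77%, and in replicate 4 within 2.90% to 3.69%. Per UMI of a nuclear-encoded OXPHOS gene, RGC-like cells held 1.67 and 1.97 mitochondrial UMIs, excitatory neuron-like cells 1.85 and 2.46 and MGE interneuron-like cells 2.28 and 4.19. In hem or choroid plexus-like cells the ratio was 1.58 and 1.88, although their mitochondrial share was 3.73% and 3.96%.

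By complex, the sums of the nuclear-encoded genes, in CPM (UMIs of a gene per 1e6 UMIs of the class), had the same order of RGC-like, excitatory neuron-like and MGE interneuron-like cells. Complex I genes summed to 4812 and 4405 CPM in RGC-like, 4311 and 3794 in excitatory neuron-like and 3549 and 2723 in MGE interneuron-like cells. Complex II, the succinate dehydrogenase of the citric acid cycle, summed to 365 and 373 CPM for RGC-like, 314 and 311 for IPC-like, 280 and 261 in excitatory neuron-like and 227 and 227 in MGE interneuron-like cells, with no overlap between these classes. Complex V genes summed to 5432 and 5017 CPM in RGC-like, 4582 and 3977 in excitatory neuron-like and 3620 and 2814 in MGE interneuron-like cells. The mitochondrially encoded genes of complex I summed to 6390 and 6634 CPM in RGC-like and 5407 and 7382 in MGE interneuron-like cells, so that these classes overlapped.

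The share of the 83 genes moved with other properties of the classes. Over the 21 named clusters with 10 or more cells per library, it correlated with the share of UMIs from genes spanning over 100 kb at Pearson's r = -0.861 (Spearman's rho = -0.895), with the share from cytosolic ribosomal protein genes at r = 0.532 (rho = 0.649) and with the mitochondrial share at r = 0.449 (rho = 0.256). Clusters share libraries, and all these shares have the same denominator, so the values are descriptions. Of the 83 genes, 2 span over 100 kb (Cox7b2 and Ndufs4), and their median span is 7.13 kb against 15.3 kb for all genes with a span in the annotation. Genes over 100 kb held 26.5% and 27.1% of the UMIs in RGC-like cells, 35.3% and 37.4% in excitatory neuron-like and 41.4% and 43.6% in MGE interneuron-like cells. Cell Ranger of this version counts intronic reads by default, and whether that was changed is not stated.

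**Figure D2:**
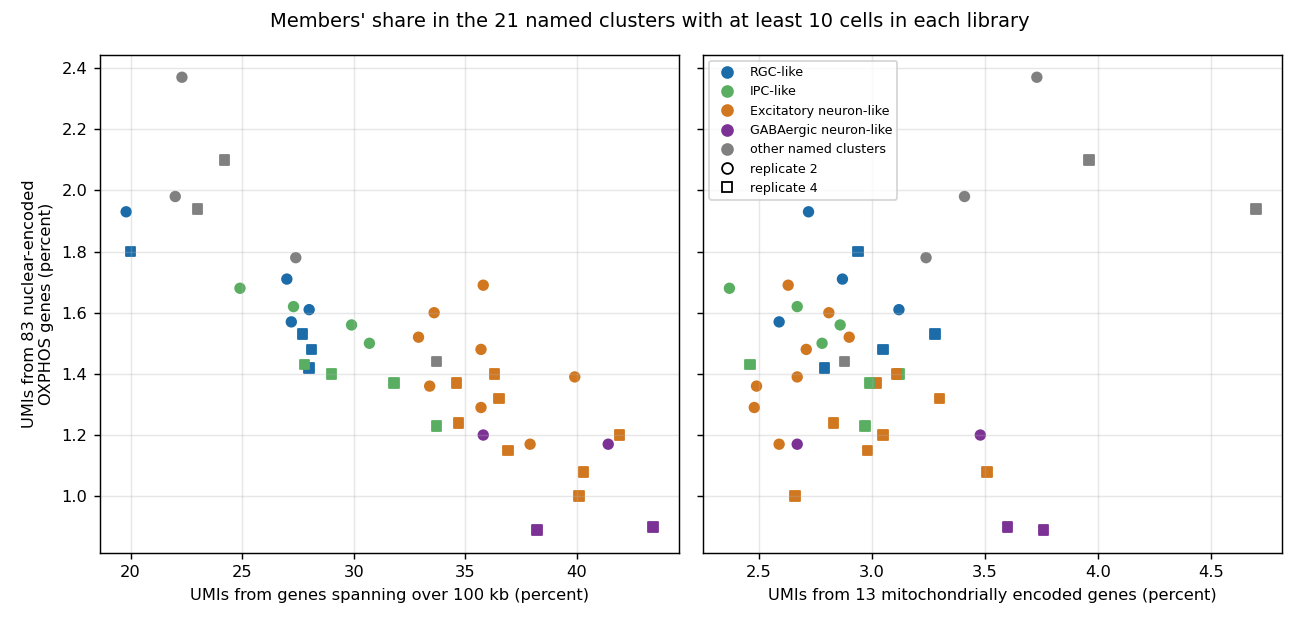
Percent of UMIs from the 83 nuclear-encoded OXPHOS genes (y axis) against the percent from genes spanning over 100 kb (left) and from the 13 mitochondrially encoded genes (right), with 1 point for each of 21 named clusters in each library (circles replicate 2, squares replicate 4, colours the cell class). Points fall along a descending band on the left (r = -0.861 over cluster means) and spread widely on the right (r = 0.449).

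The libraries themselves differed for these genes. The share was higher in replicate 2 in 8 of the 8 classes with 10 or more cells per library, whereas the mitochondrial share was higher there in 2 of 8. Of the 78 genes with enough counts to be tested, 46 had a higher CPM in replicate 2 in all of the 4 compared classes, and 0 in replicate 4, while 9.92% of all 12931 genes tested were higher in replicate 2 in all 4. The largest ratios, as log2 values of CPM plus 1 averaged over the 4 classes, were 0.78 for Ndufa3, 0.69 for Atp5md, 0.67 for Atp5k and 0.61 for Atp5e, which all code for small subunits. Atp5b, the catalytic beta subunit of complex V, had 0.04, Sdha of complex II -0.04 and Sdhd -0.11. Across the 78 genes this ratio correlated with log2 transcript length at r = -0.408 (rho = -0.487), and across the 13 mitochondrial genes, whose median ratio was -0.19, at r = -0.727 (rho = -0.418). Genes are not independent replicates, so no p is given.

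The first comparison asked which of the genes differ between progenitors and the neurons they give rise to. Between excitatory neuron-like and RGC-like cells, 5 of the 78 genes tested were higher in neurons and 5 lower (edgeR quasi-likelihood test, Benjamini-Hochberg adjusted p under 0.05 over all 12931 genes tested). Over all genes, 29.6% were called higher and 24.6% lower. Their median log2 fold change was 0.093, against 0.082 for all genes, and 69 of 78 (88.5%) lay within 0.5 of 0, against 40.0% of all genes.

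The genes called higher in excitatory neuron-like cells were 4 accessory subunits of complex I and a structural subunit of complex IV. Ndufa8, a subunit of the intermembrane space side, had 82.2 and 84.5 CPM in RGC-like and 108 and 100 CPM in excitatory neuron-like cells, so the classes did not overlap, with a log2 fold change of 0.60 ± 0.12 (SE, adjusted p = 0.00121). Ndufb10 of the membrane arm went from 125 and 120 to 146 and 139 CPM (0.49 ± 0.12, adjusted p = 0.00329). Ndufs5 had 0.51 ± 0.15, Cox5a of complex IV 0.49 ± 0.16 and Ndufb9 0.38 ± 0.15 (adjusted p = 0.0445). Of 18 alternatives, 12 lost the call of Ndufb9 and 6 that of Cox5a. In IPC-like cells Ndufa8 was at 86.3 and 79.1 CPM, close to RGC-like cells.

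Lower in excitatory neuron-like cells was Sdhd, a membrane anchor of complex II, with 71.5 and 77.1 CPM in RGC-like and 38.8 and 39.2 CPM in excitatory neuron-like cells (log2 fold change -0.65 ± 0.17, adjusted p = 0.00652). IPC-like cells lay between them with 55.3 and 50.8 CPM. Atp5g2, 1 of 3 genes for the c subunit of the rotating ring of complex V, went from 560 and 555 to 329 and 313 CPM (-0.52 ± 0.15, adjusted p = 0.0119). Ndufa12 (-0.51 ± 0.16) and Ndufs7 (-0.39 ± 0.14), an accessory and an iron-sulfur core subunit of complex I, were also lower. The 10th call was Cox6b2, an isoform of a complex IV subunit known from testis, with few counts: 4.10 and 3.34 CPM (34 and 38 UMIs) among RGC-like and 0.598 and 0.537 CPM (11 and 11 UMIs) in excitatory neuron-like cells (-2.38 ± 0.35, adjusted p = 0.000104).

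The scale matters here. CPM are relative to all UMIs of a class, while fold changes are relative to the TMM scaling of edgeR, which ran from 0.853 to 0.868 in excitatory neuron-like and from 1.039 to 1.049 in RGC-like sums. With UMI totals alone, an alternative chosen after seeing the data, the median over all genes moved from 0.082 to -0.19 and the members split into 1 higher (Ndufa8) and 15 lower. With DESeq2 size factors the median over all genes was -0.041 and the split 2 higher and 8 lower. The replicate block, in which the library enters as a term because sums of the same number come from the same library, called 18 members (9 higher, 9 lower). Without the IPC-like clusters that had excitatory markers raised, 4 were higher and 5 lower, as Ndufb9 was lost. Shares of all genes called, here and below, are those of the main fit and not of the alternatives.

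**Figure D3:**
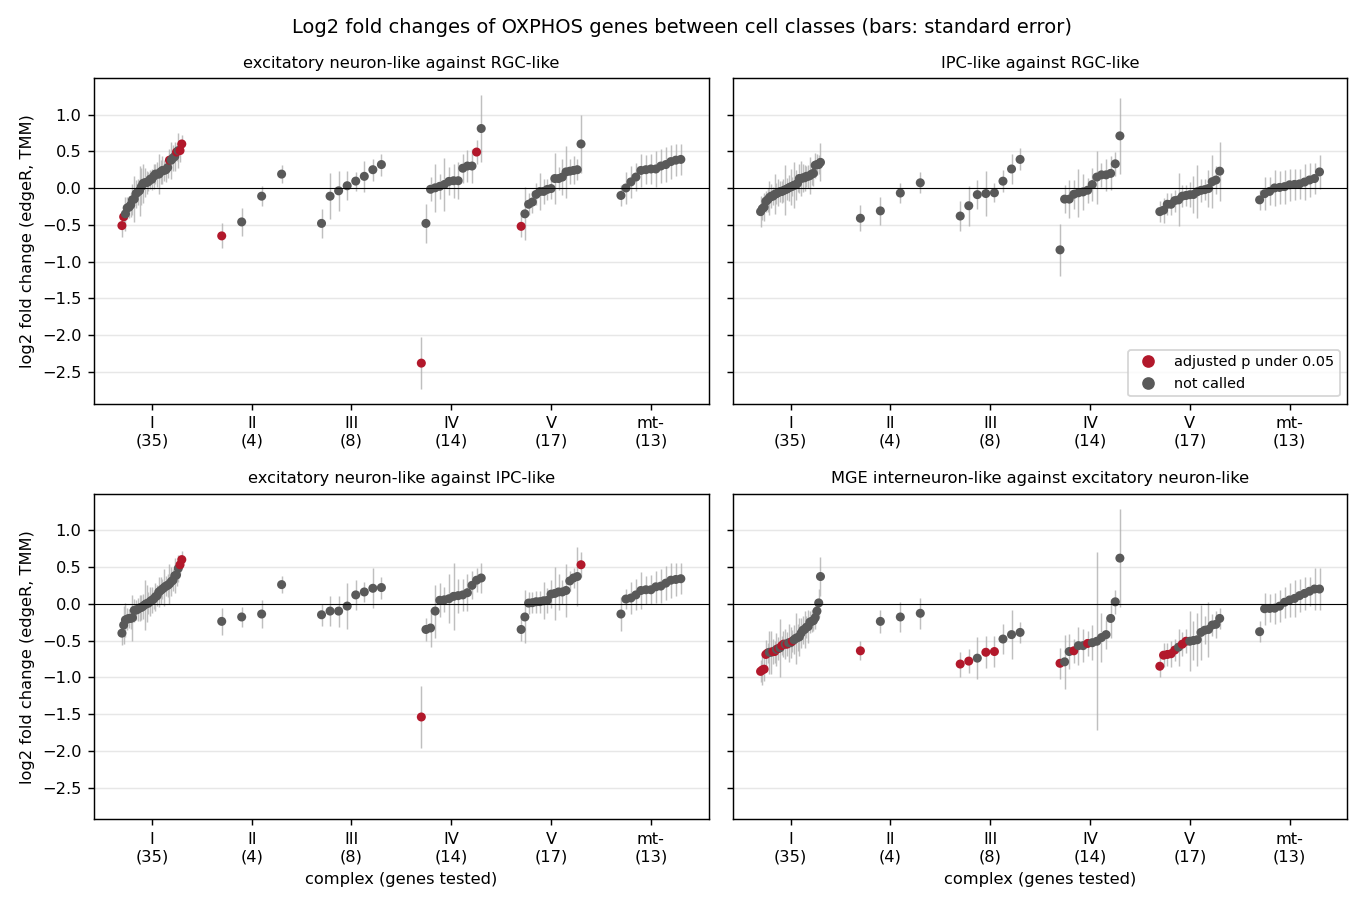
Log2 fold changes of the tested OXPHOS genes in the 4 comparisons (edgeR, TMM scaling), grouped by complex with the number of genes tested, and of the 13 mitochondrially encoded genes (mt-). Each point is a gene, bars are standard errors and red points were called; the 27 calls of the bottom right panel all lie under 0, and no mitochondrially encoded gene was called in any panel.

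In IPC-like against RGC-like cells, 0 of 78 genes were called in either direction, at a background of 15.7% higher and 17.6% lower over all genes (edgeR). At an unadjusted p under 0.05 there were 6. Fold changes ranged from -0.84 (Cox6b2, with few counts) to 0.71 (Cox7a1, likewise), and 76 of 78 lay within 0.5 of 0. Uqcrfs1, the Rieske iron-sulfur protein of complex III, had 139 and 140 CPM in IPC-like cells against 113 and 110 CPM in RGC-like cells (0.39 ± 0.15, adjusted p = 0.0616), and the replicate block called it (adjusted p = 0.046) and Uqcr10. The DESeq2 Wald test called 10 members and DESeq2 size factors with edgeR called 1. The backgrounds of 15.7% and 17.6% are those of the main fit and not of these alternatives. Without the IPC-like clusters with excitatory markers, 0 were called.

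Between excitatory neuron-like and IPC-like cells, 3 members were called higher, at a background of 20.1% of all genes, and 1 lower, at a background of 14.8%. Ndufb10 went from 115 and 101 to 146 and 139 CPM (log2 fold change 0.60 ± 0.12, adjusted p = 0.00162) and Ndufa8 from 86.3 and 79.1 to 108 and 100 CPM (0.53 ± 0.12, adjusted p = 0.00493). Atp5g1, another c subunit gene, went from 170 and 158 to 215 and 197 CPM (0.53 ± 0.17, adjusted p = 0.0288), and Cox6b2 was lower (-1.54 ± 0.42, adjusted p = 0.0126). The classes did not overlap in CPM for any of these 4, which were picked as called, so this adds no support. The block called 7 members, and UMI totals alone, chosen after seeing the data, 1 higher and 7 lower. Without the IPC-like clusters with excitatory markers, 2 were called higher and 3 lower, and the call of Atp5g1, which 12 of 18 alternatives lost, was lost here too. Without the excitatory neuron-like clusters with IPC markers, 6 were called higher and 2 lower. This comparison and the 2 before it share their sums, and none is independent of the others.

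The 13 mitochondrially encoded genes had 0 calls in all 3 comparisons (edgeR), with 0 at an unadjusted p under 0.05. Their median log2 fold change was 0.26 in excitatory neuron-like against RGC-like, 0.045 in IPC-like against RGC-like and 0.19 in excitatory neuron-like against IPC-like cells. mt-Nd4 had the highest value against RGC-like cells, with 1905 and 2024 CPM there and 1986 and 2247 CPM in excitatory neuron-like cells (0.39 ± 0.21, adjusted p = 0.143).

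The last comparison set MGE interneuron-like cells against excitatory neuron-like cells, the GABAergic against the glutamatergic neurons of the same tissue. Here 27 of 78 members were called lower in MGE interneuron-like cells and 0 higher, at a background of 13.1% lower and 6.67% higher over all genes. Their median log2 fold change was -0.52, against -0.12 for all genes. In 71 of 78 the value was lower in both libraries, which held for 45.6% of all genes tested. The direction was the same for all called members in each alternative run, though their number ran from 13 to 49. The replicate block called 49, and DESeq2 size factors 14, all of the latter among the 27. The backgrounds of 13.1% and 6.67% belong to the main fit, so these counts cannot be set against them. Without the IPC-like clusters with excitatory markers, which changes the fit that all classes share, 19 were called lower.

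In the main fit, calls came from every complex: 12 of 35 in complex I, 1 of 4 in complex II, 4 of 8 in complex III, 3 of 14 in complex IV and 7 of 17 in complex V. These counts depend on the fit. Among the complex IV genes that only the replicate block (edgeR) called lower were Cox7c (adjusted p = 0.000892), Cox7a2 (adjusted p = 0.00407) and Cox7b (adjusted p = 0.00775). In complex I, the iron-sulfur subunit Ndufs8 went from 53.7 and 49.7 to 33.7 and 25.6 CPM (log2 fold change -0.90 ± 0.21, adjusted p = 0.00969) and the accessory subunit Ndufc2 from 246 and 216 to 144 and 124 CPM (-0.89 ± 0.16). Ndufs7 (-0.65 ± 0.15) and Ndufa11 (-0.69 ± 0.20) were also called. Other core subunits were not: Ndufs1 went from 50.3 and 48.2 to 51.4 and 55.5 CPM (0.011 ± 0.19, adjusted p = 0.985). Ndufs3 had -0.24 ± 0.15, Ndufv1 -0.49 ± 0.20 and Ndufv2 -0.25 ± 0.15. Ndufa5, an accessory subunit, went from 84.7 and 63.4 to 135 and 70.5 CPM (0.37 ± 0.26, adjusted p = 0.389).

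In complex II, Sdhb, which carries its iron-sulfur clusters, went from 123 and 112 to 85.1 and 77.6 CPM (-0.64 ± 0.13, adjusted p = 0.00490). The flavoprotein Sdha (-0.13 ± 0.21) and the anchors Sdhc (-0.24 ± 0.16) and Sdhd (-0.18 ± 0.21) were not called. In complex III, the Rieske protein Uqcrfs1 went from 111 and 108 to 76.3 and 57.3 CPM (-0.82 ± 0.17, adjusted p = 0.00363) and the core protein Uqcrc2 from 133 and 129 to 96.4 and 67.0 CPM (-0.78 ± 0.16). Uqcrc1, the other core protein, had -0.39 ± 0.14 (adjusted p = 0.0745).

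In complex IV, Cox6a1 went from 226 and 179 to 154 and 93.4 CPM (-0.81 ± 0.21, adjusted p = 0.0140), and Cox7a2l, which helps to join complexes into supercomplexes, from 194 and 203 to 155 and 120 CPM (-0.64 ± 0.16). Cox4i1, an early-assembling subunit, was called at -0.54 ± 0.17 (adjusted p = 0.0442), and 13 of 18 alternatives lost this call. Cox5a, which was higher in excitatory neuron-like than in RGC-like cells, went from 384 and 376 to 475 and 361 CPM (0.026 ± 0.16, adjusted p = 0.942). In complex V, Atp5o, the stalk protein known as OSCP, went from 329 and 307 to 204 and 175 CPM (-0.85 ± 0.14, adjusted p = 0.000998). Atp5d (-0.70 ± 0.16) and the catalytic Atp5b (-0.63 ± 0.15) were also called, while the other catalytic-head subunit Atp5a1 had -0.28 ± 0.18 (adjusted p = 0.314).

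**Figure D4:**
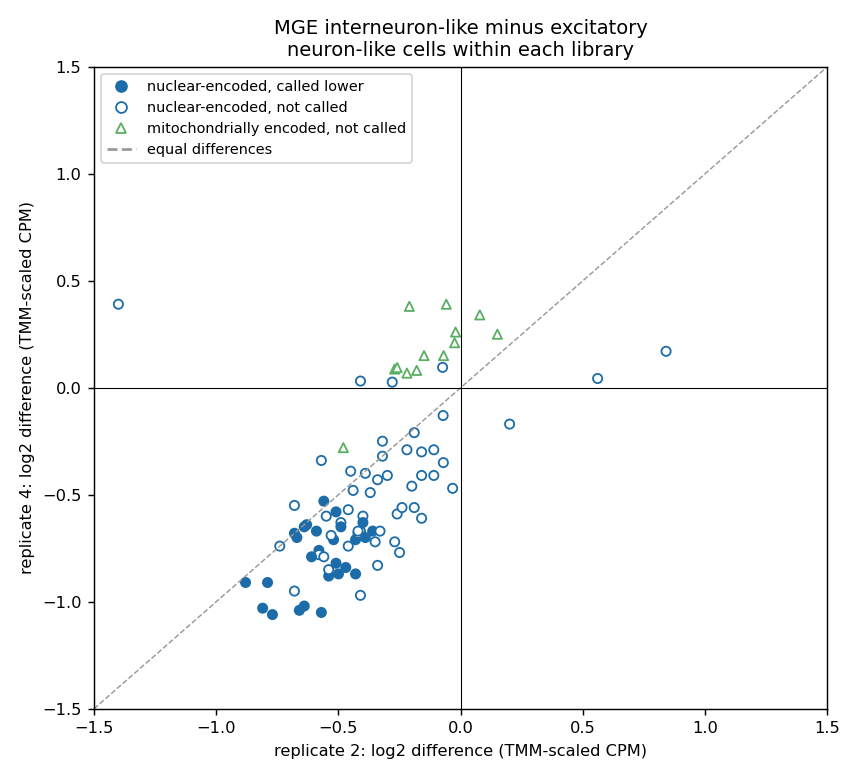
Log2 difference between MGE interneuron-like and excitatory neuron-like cells within replicate 2 (x axis) and within replicate 4 (y axis), with 1 point for each tested gene on the TMM-scaled CPM scale. Circles are nuclear-encoded OXPHOS genes (filled where called lower, 27 genes), triangles the 13 mitochondrially encoded genes, and 71 of 78 circles lie below 0 on both axes.

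The 13 mitochondrially encoded genes showed no such shift, with 0 called (edgeR, 1 at an unadjusted p under 0.05) and a median of 0.051. The libraries went different ways for them, with a median of -0.15 in replicate 2 and 0.15 in replicate 4, and 2 of 13 were higher in both and 1 lower in both. mt-Co3 had 5810 and 6825 CPM in excitatory neuron-like and 6163 and 8800 CPM in MGE interneuron-like cells. mt-Nd5 was the gene lower in both libraries, going from 226 and 216 in excitatory neuron-like to 173 and 191 CPM in MGE interneuron-like cells (-0.38 ± 0.14, adjusted p = 0.0753). Whether the shift of nuclear-encoded genes differs from that of mitochondrial genes was not tested.

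Other properties differed between these classes as well. MGE interneuron-like cells were shallower, with medians of 23450 and 10737 UMIs against 34745 and 25144. They held 269 and 119 UMIs of the 83 genes per cell against 515 and 323, and 615 and 498 mitochondrial UMIs against 954 and 794. Cytosolic ribosomal protein genes made up 4.48% and 3.22% of their UMIs against 7.80% and 6.77%, and genes over 100 kb more. As a share of the UMIs from genes under that span, without mitochondrial and ribosomal protein genes, the 83 genes held 2.27% and 1.78% against 2.67% and 2.36%. With each cell thinned to 5000 UMIs, 21 members were called lower. Thinning draws UMIs at random and leaves the expected share of each gene in a cell as it was. It therefore does not test the part of depth or cell quality. With mitochondrial and ribosomal protein genes taken out of the library totals and the scaling, 19 were called lower, with a median of -0.47 against -0.072 for all genes. The part of the other properties in the result was not tested. Among the tested members, the median log2 fold change was -0.53 for the 39 with shorter and -0.50 for the 39 with longer transcripts. Their median length was 872 bases, against 3224 for all tested genes with a known length. This split does not compare members with other genes, so a part of transcript length in the result was not tested.

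Related gene groups had the following counts in MGE interneuron-like cells against excitatory neuron-like cells, where 13.1% of all genes were called lower, 6.67% higher, and the median over all genes was -0.12. Of the 4 OXPHOS genes that the symbols left out (Ndufab1, Cyc1, Cycs and Atpif1), 2 were called lower (median -0.56). Of 46 OXPHOS assembly factors, 3 were called lower (median -0.26), of 14 tested mitochondrial biogenesis regulators 1 (median -0.14), and of 16 citric acid cycle genes 7 (median -0.54). Mitochondrial ribosomal protein genes had 20 of 78 called lower (median -0.49), cytosolic ribosomal protein genes 65 of 81 (median -1.05) and glycolysis genes 12 of 18 (median -0.95). No gene of these lists was called higher.

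In excitatory neuron-like against RGC-like cells, 29.6% of all genes were called higher and 24.6% lower, and the same lists had the following counts. Glycolysis genes had 12 called lower and 5 higher of 18 (median -0.96), biogenesis regulators 8 lower and 1 higher of 14 (median -0.52), and cytosolic ribosomal protein genes 28 lower of 81 (median -0.46). Assembly factors had 13 higher and 5 lower of 46 (median 0.19), citric acid cycle genes 2 higher and 2 lower of 16 (median -0.065), and mitochondrial ribosomal protein genes 3 higher and 17 lower of 78 (median -0.14). Of the 4 further OXPHOS genes 1 was called higher (median 0.16). These medians stand against 0.082 for all genes and 0.093 for the members.

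Several subunits are encoded by gene families whose members are known to be used in different tissues, and these were followed in every class. Cox4i1 was found in all classes, at 643 and 673 CPM in RGC-like cells. Its alternative Cox4i2, known from lung and from cells that sense low oxygen, was seen with 12 and 34 UMIs (1.45 and 2.99 CPM) among RGC-like cells and was too low to be tested. In the 12 mural-like cells (3 and 9 per library), the contractile cells of vessel walls, it had 13 and 42 UMIs, or 157 and 132 CPM. The endothelial-like cells, the other cells of the vessel wall, had 0 UMIs in each library, which allows up to 10.2 and 7.67 CPM (3 UMIs of the class, for counting error only).

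Cox6b1 was present throughout, with 343 and 274 CPM in RGC-like and 432 and 369 CPM in hem or choroid plexus-like cells. Cox6b2 reached 139 and 177 CPM (168 and 121 UMIs) in hem or choroid plexus-like cells, 28.9 and 17.1 in meningeal-like and 17.4 and 9.92 in Cajal-Retzius-like cells, and at most 4.10 CPM in the 4 compared classes. In GABAergic cells with no sub-class it had 0 UMIs in each library, which allows up to 6.52 and 2.43 CPM. Of Cox7a1 and Cox7a2, the form known from heart and skeletal muscle, Cox7a1, was at 9.93 and 11.7 CPM in hem or choroid plexus-like and at 0.724 and 0.967 CPM in RGC-like cells, whereas Cox7a2 was at 293 and 250 CPM in RGC-like cells. These levels are given without a test, since no comparison with these classes was made.

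**Figure D5:**
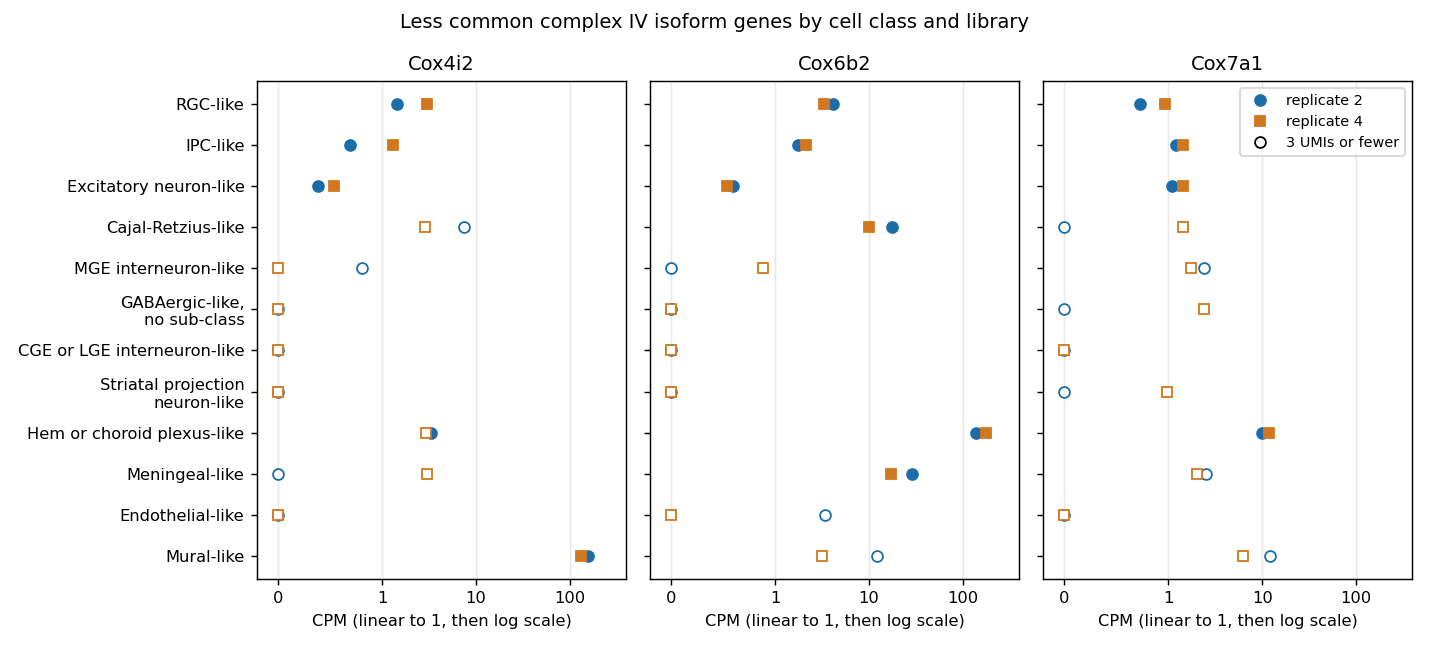
CPM of Cox4i2, Cox6b2 and Cox7a1 in 12 named cell classes (x axis linear up to 1 and on a log scale beyond), with circles for replicate 2, squares for replicate 4 and open symbols for 3 UMIs or fewer. Cox4i2 stands out in mural-like cells (157 and 132 CPM) and Cox6b2 in hem or choroid plexus-like cells (139 and 177 CPM).

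The remaining alternatives were at the edge of detection. Among RGC-like cells Cox7b2 had 19 and 24 UMIs, and among excitatory neuron-like cells 10 and 2, while Cox7b had 267 and 200 CPM in RGC-like cells. Cox6a2 and Cox8b, known from muscle, had at most 3 and 1 UMIs in any class and library, and Cox8c, known from testis, had 0 in all. Cox8a was at 482 and 404 CPM in RGC-like and 296 and 227 CPM in excitatory neuron-like cells (-0.48 ± 0.26, adjusted p = 0.132), and the replicate block called it (adjusted p = 0.0160).

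The 3 genes of the c subunit, whose mature proteins are identical and which differ in their import sequences, were each followed. In excitatory neuron-like against RGC-like cells (edgeR), Atp5g2 was called lower. Atp5g1 went from 208 and 217 CPM in RGC-like to 215 and 197 CPM in excitatory neuron-like cells (0.23 ± 0.17, adjusted p = 0.268). Atp5g3 went from 169 and 169 to 143 and 132 CPM (-0.018 ± 0.14, adjusted p = 0.922). In MGE interneuron-like cells against excitatory neuron-like cells, Atp5g1 went from 215 and 197 to 145 and 132 CPM (-0.68 ± 0.18, adjusted p = 0.0161) and Atp5g2 from 329 and 313 to 222 and 207 CPM (-0.69 ± 0.16, adjusted p = 0.00787). Atp5g3 had 147 and 111 CPM there (-0.20 ± 0.14, adjusted p = 0.394). Differences between the 3 genes were not tested. Reads of gene families and of their processed pseudogenes can be shared or lost in counting, which applies to these genes too.

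Promoters were examined because OXPHOS genes are known targets of nuclear respiratory factor 1 (NRF1), of GABPA, a factor of the ETS family, and of YY1. RefSeq windows (GRCm38.p6) from 250 bases before to 50 after the gene start were at hand for 68 of the 83 genes. The NRF1 core GCATGCGC was found on either strand in 10 of the 68 genes (14.7%) against 3.05% of all 27025 genes with a window. The ETS core CCGGAAG was found in 17 (25%) against 9.93%, and the YY1 core AAGATGGC in 10 (14.7%) against 3.19%. At least 1 of the 3 was present in 31 genes (45.6%) against 14.9% of all genes, and in 6 of the 68 genes at least 2. The genes with a window include noncoding ones, and a match is a description of letters, not of binding.

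The 250 bases before the start are shown for 5 genes on which the comparisons turned, on the strand of the gene, with matches to these cores in capitals. They are Ndufa8 (called higher in neurons, chr2:36049339-36049588, minus strand), Atp5g2 (lower in neurons and lower again in MGE interneuron-like cells, chr15:102671048-102671297, minus strand), Sdhb (lower in MGE interneuron-like cells, chr4:140961021-140961270, plus strand), and the pair Cox6b1 (chr7:30626115-30626364, minus strand) and Cox6b2 (chr7:4753095-4753344, minus strand), which differ in the classes they were found in.
Ndufa8: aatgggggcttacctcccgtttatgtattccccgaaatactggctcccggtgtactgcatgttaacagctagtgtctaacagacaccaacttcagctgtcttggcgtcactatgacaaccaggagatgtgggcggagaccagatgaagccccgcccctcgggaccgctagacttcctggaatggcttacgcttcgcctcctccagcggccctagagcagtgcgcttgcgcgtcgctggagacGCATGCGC
Atp5g2: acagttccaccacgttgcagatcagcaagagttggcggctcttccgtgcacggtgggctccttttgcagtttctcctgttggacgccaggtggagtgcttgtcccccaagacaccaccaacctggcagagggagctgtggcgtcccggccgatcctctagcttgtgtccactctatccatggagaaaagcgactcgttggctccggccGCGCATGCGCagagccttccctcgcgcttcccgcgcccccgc
Sdhb: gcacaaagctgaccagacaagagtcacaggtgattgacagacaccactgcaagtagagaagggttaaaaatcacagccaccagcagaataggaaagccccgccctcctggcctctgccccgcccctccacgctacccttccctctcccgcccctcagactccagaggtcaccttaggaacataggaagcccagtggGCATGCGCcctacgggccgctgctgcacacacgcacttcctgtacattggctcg
Cox6b1: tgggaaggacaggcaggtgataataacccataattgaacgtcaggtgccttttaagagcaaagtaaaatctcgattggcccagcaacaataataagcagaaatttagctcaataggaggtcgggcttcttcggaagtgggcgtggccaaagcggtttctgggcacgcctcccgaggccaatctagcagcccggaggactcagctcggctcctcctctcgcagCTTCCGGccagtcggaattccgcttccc
Cox6b2: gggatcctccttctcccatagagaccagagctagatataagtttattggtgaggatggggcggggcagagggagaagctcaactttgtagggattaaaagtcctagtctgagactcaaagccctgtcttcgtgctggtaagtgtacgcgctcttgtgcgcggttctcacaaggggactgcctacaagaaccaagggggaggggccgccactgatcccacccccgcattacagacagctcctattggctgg

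The match of Ndufa8 is an NRF1 core that starts 8 bases before the gene start. In Atp5g2 an NRF1 core lies on both strands, in overlapping matches that start 42 and 40 bases before the start, and in Sdhb on the gene's strand 54 bases before it. Sdhb also holds an ETS core on its strand that begins 7 bases after the start, beyond the bases printed. Cox6b1 holds an ETS core on the opposite strand 28 bases before the start. Cox6b2 has none of these letters in the window searched.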

How the data were processed

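Droplet-based 3′ single-cell RNA sequencing (v3.1 chemistry) was analysed in 2 libraries. The deposited values were raw UMI counts per gene and barcode, which the authors made with Cell Ranger 7.0.0 and mm10, as the submitters' processing notes name them. Whether intronic reads were counted is not stated. From these counts, barcodes were kept if they had 1000 genes or more and a mitochondrial share of 10% or less, and doublets called by Scrublet (14 and 15 cells) were removed. Cells were clustered with scanpy 1.11.5 (2000 variable genes without the OXPHOS and mitochondrial genes, 30 components, 20 neighbours, Leiden resolution 1) and named from marker lists, at least 3 markers being raised. UMIs were summed per class and library. The 8 classes with 10 or more cells per library entered 1 fit with edgeR 4.0.16 (R 4.3.3, TMM, filterByExpr, quasi-likelihood test, Benjamini-Hochberg adjustment over all genes tested, adjusted p under 0.05).

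The genes named were, per comparison, up to 10 called genes in each direction with the largest change of the same sign in both libraries, and, in all comparisons, core subunits, Sdh genes, families with more than 1 gene and mitochondrial genes. A gene that this rule names is not reported here. Genes, lists and named classes were chosen with earlier results of these data known. Sums of the same library deviated together (correlations of 0.122 to 0.322 over 6 pairs of classes), so the replicate number pairs them. On data simulated for the comparison of excitatory neuron-like with RGC-like cells (12617 genes), 79% of 2-fold and 98% of 4-fold changes were recovered. For IPC-like with RGC-like cells (12658 genes) these were 68% and 98%, and for excitatory neuron-like with IPC-like cells (12623 genes) 82% and 99%. For MGE interneuron-like with excitatory neuron-like cells (12585 genes) they were 67% and 95%. False calls numbered 20, 18, 13 and 9 in this order. Smaller changes were not simulated, and sums of a library were drawn independently, unlike the real ones. Gene spans came from RefSeq and transcript lengths from GENCODE vM39, matched by symbol or gene ID. In promoter windows, the bases after the start were found in transcripts of the gene for 19 of 21 windows on the plus and 46 of 52 on the minus strand. Alternatives changed the cell filters, doublets, clustering, scaling, test, gene filter, thinning to 5000 UMIs, fitted classes and the replicate block. Intervals and limits on counts of 0 cover counting error only.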

Additional observations from a re-analysis of the deposited data

Results flagged for a closer look

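Complex IV isoform genes stood out in cell classes that no comparison used. In mural-like cells, Cox4i2 was at 157 CPM in replicate 2 (13 UMIs in 3 cells) and 132 CPM in replicate 4 (42 UMIs in 9 cells). The limit of 3 UMIs lies there at 36.2 and 9.4 CPM, and Cox4i2 had at most 2.99 CPM in the 4 compared classes. Cox6b2 was at 139 CPM in replicate 2 (168 UMIs) and 177 CPM in replicate 4 (121 UMIs) in hem or choroid plexus-like cells, with limits of 2.48 and 4.39 CPM, and at most 4.10 CPM in the compared classes. They were picked because they exceeded all compared classes more than 10-fold in both libraries, and the differences were not tested.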

How the results depend on the processing

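Of the called genes, 556 values under the alternatives with both libraries kept the call and 182 lost it with the same direction, and 0 reversed. Within single libraries, 77 values stayed within 1 SD (between libraries) of the fitted value and 5 did not, of which 4 were of Cox6b2, all with the same sign. Among genes not called, 442 of 4856 values changed sign, and 0 of those were called. Ndufa8 and Sdhd in excitatory neuron-like against RGC-like cells, and Atp5g2, Atp5o, Ndufb10, Ndufc2, Sdhb, Uqcrc2 and Uqcrfs1 in MGE interneuron-like cells against excitatory neuron-like cells, kept their calls in all 18 alternatives.

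Counts of called members moved as follows, and the causes were not tested. The shares of all genes given above are those of the main fit, so these counts have no background of their own. In excitatory neuron-like against RGC-like cells (10 calls), UMI totals alone and the DESeq2 Wald test gave 16 each, a fit of only the compared classes 23 and the replicate block 18. In IPC-like against RGC-like cells (0 calls), thinning and DESeq2 size factors gave 1 each, UMI totals alone and the replicate block 2 each, the Wald test 10 and only the compared classes 8. In excitatory neuron-like against IPC-like cells (4 calls), Leiden resolution 2, UMI totals alone and leaving out excitatory neuron-like clusters with IPC markers gave 8 each, clustering on all variable genes 2, the Wald test 14, only the compared classes 16 and the replicate block 7. In MGE interneuron-like cells against excitatory neuron-like cells (27 calls), limits of 5% and 20% mitochondrial UMIs gave 17 and 15, clustering on all variable genes 17, classes and tests from separate parts of the UMIs 13, DESeq2 size factors 14, all genes with at least 1 count 46 and the replicate block 49. All main calls were shared by the block. The settings with UMI totals alone and without clusters that had markers of the other class (IPC-like or excitatory neuron-like) were chosen after seeing the data.

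There were 2 libraries of 1 group, and 138 MGE interneuron-like cells. Without either library no residual degrees of freedom are left within a class, so these are values and not tests. Classes with few cells, such as the 12 mural-like cells, limit what can be said of genes found there.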

Other observations

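Outside the named classes, nuclear-encoded OXPHOS genes spanned a wider range. In an unnamed cluster of 89 cells they held 3.19% and 2.45% of UMIs, with genes over 100 kb at 8.17% and 11.1%. In another unnamed cluster of 65 cells they held 0.471% and 0.487%, with genes over 100 kb at 38.4% and 39.8% and 9.73 and 9.99 mitochondrial UMIs per nuclear-encoded OXPHOS UMI. Both were shallow, with medians of 4809 and 4441 and of 5872 and 4044 UMIs.

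The 59 and 195 barcodes left out for over 10% mitochondrial UMIs held 1.10% and 0.756% of their UMIs in the 83 genes. Their ratio of mitochondrial to nuclear-encoded OXPHOS UMIs was 14.4 and 18.9, against 1.80 and 2.35 in the other barcodes with at least 1000 genes.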
